A study of Mus musculus with 2 samples.

Results

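The Wnt and Notch pathway genes described here are 60 mouse genes picked by name, 47 of the Wnt pathway and 13 of the Notch pathway. They comprise ligands, receptors, regulators of beta-catenin and nuclear effectors. Their H3K36me2 peaks are all listed regions that the authors' annotation gave to one of them as the nearest gene. Of the 60 genes, 42 had such a peak in at least 1 of the 2 libraries, among 18187 genes with a peak in either. The data were peak lists from CUT&Tag, an assay in which an antibody against the mark tethers the Tn5 transposase to chromatin, so that the DNA around the mark is tagged and sequenced. There was 1 library from the colon of NSD2fl/fl mice, which carry loxP-flanked Nsd2 alleles, and 1 from the colon of NSD2∆IE mice, in which Villin-Cre removes NSD2 from the intestinal epithelium by way of those alleles. Both were fed a high-fat cholesterol diet (HFCD), for 16 weeks by the deposited design text and 18 weeks by the methods, and the methods describe the animals as male littermates on a C57BL/6J background aged 7 to 8 weeks at the start. How many mice each library holds is not given in the sources used here. The tissue was whole colon. By design Villin-Cre acts in the epithelium alone and the other cells of the wall keep NSD2, which the peak lists do not measure. A smaller share of a cell type cannot be told apart from less of the mark in each of its cells.

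Wnt ligands bind Frizzled receptors with the co-receptors Lrp5 and Lrp6. This stops a complex of Apc, Axin and Gsk3b from breaking down beta-catenin, which then acts on target genes with TCF/LEF factors and keeps the stem cells at the crypt base dividing. Notch receptors are cut when a Delta or Jagged ligand on a neighbouring cell binds them, and their inner part acts in the nucleus with Rbpj and Mastermind-like proteins on targets such as Hes1, a switch that favours absorptive over secretory cells. H3K36me2 is a broad mark, found over introns and between genes, that NSD2 and its relatives deposit. A histone peak does not measure expression, and a gene without a peak had no region strong enough to be listed, which is not the same as no mark.

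The NSD2fl/fl list held 19976 peaks with a median width of 4643 bp, and the NSD2∆IE list 23518 peaks with a median width of 3426 bp. Each peak has a summed signal, the signal added up over its bases, and no peak was listed below 21783 in NSD2fl/fl or below 16571 in NSD2∆IE. No scaling to depth is stated, so signal is given here as a multiple of the lowest signal in the same list and compared within it, except where 1 limit was set on both lists. The depth of the libraries is unknown. Nsd2, the gene deleted in NSD2∆IE, had no peak in NSD2fl/fl and 1 promoter peak of 3766 bp in NSD2∆IE, at 1.09 times the lowest signal, which says nothing of the deletion because a peak list does not show a lost exon. The Vil1 promoter, whose sequence drives the Cre, carried an outlying peak in both libraries, with 64.9 signal per bp in NSD2fl/fl and 76.8 in NSD2∆IE, where the medians of all peaks were 6.14 and 6.32. Relative to the lowest signal of its list the peak stood at 39.3 times in NSD2fl/fl and 62.5 times in NSD2∆IE. The label NSD2fl/fl names no Cre, so an outlying peak at the promoter used for the Cre leaves the genotype of that library in doubt. The peaks could not settle the genotype of either library, and whether either holds the Cre transgene was not tested, so NSD2fl/fl and NSD2∆IE name the libraries by their labels throughout. With 1 library per genotype no difference has a replicate check, no test was made, and genotype and library cannot be told apart. A gene's covered length is the summed width of its peaks. Less means a log2 ratio of NSD2∆IE to NSD2fl/fl below -0.5 or a peak in NSD2fl/fl alone, more means a ratio above 0.5 or a peak in NSD2∆IE alone, and similar means the rest.

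Promoter sequence is shown for the members at which a peak reached, or clearly missed, the start site, because the lists give only positions there. RefSeq promoters (GRCm38.p6) of 250 bases before and 50 after a start site were at hand for 45 members, and 23 of the 58 promoters matched a transcript of the lists by its length. Of these 23 windows of 300 bases, 5 lay wholly in an NSD2fl/fl peak, 3 wholly in an NSD2∆IE peak and 1 in both. That 1 window was at Wnt7a, and the Notch4 start site also lay in a peak of both libraries, with 300 and 166 bases of its window covered. The lists use another build than GRCm38.p6, so each sequence carries its GRCm38.p6 position and the coverage comes from the matched transcript. The 250 bases before the start site follow, with the core of RBPJ sites, TGGGAA on either strand, in capitals. The first pair was named by rule, and the last 3 were chosen after their values were seen.
Wnt7a promoter (GRCm38.p6 chr6:91411354-91411603, minus strand): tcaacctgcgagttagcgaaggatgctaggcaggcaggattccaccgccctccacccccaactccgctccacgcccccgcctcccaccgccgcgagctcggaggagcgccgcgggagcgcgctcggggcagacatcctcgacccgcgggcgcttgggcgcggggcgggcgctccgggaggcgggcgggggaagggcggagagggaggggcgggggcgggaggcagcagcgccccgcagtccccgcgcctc
Notch4 promoter (GRCm38.p6 chr17:34564045-34564294, plus strand): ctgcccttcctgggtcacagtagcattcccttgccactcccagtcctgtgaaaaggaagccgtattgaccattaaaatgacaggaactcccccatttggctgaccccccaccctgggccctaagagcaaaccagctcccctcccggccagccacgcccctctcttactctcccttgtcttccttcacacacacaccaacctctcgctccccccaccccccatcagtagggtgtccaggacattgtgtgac
Jag2 promoter (GRCm38.p6 chr12:112929496-112929745, minus strand): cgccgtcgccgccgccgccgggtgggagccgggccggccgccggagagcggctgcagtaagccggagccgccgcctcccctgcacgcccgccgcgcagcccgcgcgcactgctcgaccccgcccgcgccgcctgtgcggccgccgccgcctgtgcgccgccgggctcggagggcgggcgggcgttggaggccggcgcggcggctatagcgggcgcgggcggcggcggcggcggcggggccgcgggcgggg
Wnt3 promoter (GRCm38.p6 chr11:103773925-103774174, plus strand): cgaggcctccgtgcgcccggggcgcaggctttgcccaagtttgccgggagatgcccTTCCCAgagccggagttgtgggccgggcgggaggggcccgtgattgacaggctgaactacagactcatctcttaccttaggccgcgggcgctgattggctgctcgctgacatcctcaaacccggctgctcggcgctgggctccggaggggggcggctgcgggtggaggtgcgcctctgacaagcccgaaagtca
Notch1 promoter (GRCm38.p6 chr2:26503823-26504072, minus strand): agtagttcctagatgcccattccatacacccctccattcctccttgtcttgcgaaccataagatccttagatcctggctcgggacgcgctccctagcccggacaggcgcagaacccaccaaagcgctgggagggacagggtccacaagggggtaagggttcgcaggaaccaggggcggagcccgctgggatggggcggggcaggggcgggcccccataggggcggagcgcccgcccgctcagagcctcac

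The Jag2 and Wnt3 windows lay wholly in NSD2fl/fl peaks, and the nearest NSD2∆IE peaks lay 579 bp and 1188 bp away. The Notch1 window was the reverse, wholly inside an NSD2∆IE peak and 2115 bp from the nearest NSD2fl/fl peak. The share of G and C ran from 58.4% at Notch4 through 66% at Notch1, 68% at Wnt3 and 77.6% at Wnt7a to 87.2% at Jag2. The median was 66.8% over the 58 member promoters and 52.4% over all 32851 promoters of the table. TGGGAA occurred in 12 of the 58 member promoters (20.7%; 25.6% of all promoters), of which the Wnt3 promoter carries 1, on the minus strand 194 bases before the start site. The core of TCF/LEF sites, TCAAAG on either strand, occurred in 7 of the 58 (12.1%; 16.0% of all promoters) and in none of those printed. A match to these letters is a description and not a site of binding.

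Peaks were annotated to 32 of the 60 members in NSD2fl/fl (53.3%) and to 36 in NSD2∆IE (60%). Of 21900 protein-coding RefSeq genes, 30.9% had a peak in NSD2fl/fl, 32.9% in NSD2∆IE and 20.4% in both. Both libraries had a peak at 26 members. The members with a peak were long genes, with a median span of 40848 bp from the first to the last position of their transcripts in the lists, against 10910 bp over all genes of the lists, and the part of gene length in these shares was not tested. Promoter peaks are those that the annotation places within 3 kb of a start site. They belonged to 16 of the 60 members in NSD2fl/fl and to 17 of the 60 in NSD2∆IE. Of the 21900 protein-coding genes, 3668 (16.7%) had one in NSD2fl/fl and 3572 (16.3%) in NSD2∆IE. The members had 71 peaks covering 398748 bp in NSD2fl/fl and 86 peaks covering 343589 bp in NSD2∆IE. NSD2∆IE thus had more peaks over 0.862 times the length at these genes, near the 0.856 times of the whole lists.

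Covered length was less in NSD2∆IE at 17 members, more at 15 and similar at 10. Over all 18187 genes with a peak, 43.3% were less, 39.7% more and 16.9% similar, and among the 42 members the shares were 40.5%, 35.7% and 23.8%. The direction of the members was therefore near that of the genome. The median log2 ratio over the 26 members with peaks in both libraries was -0.25, beside -0.32 over all 7870 such genes. The Wnt genes divided evenly, 11 less, 12 more and 9 similar of 32 with a peak. Of the 10 Notch genes with a peak, 6 were less, 3 more and 1 similar.

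**Figure D1:**
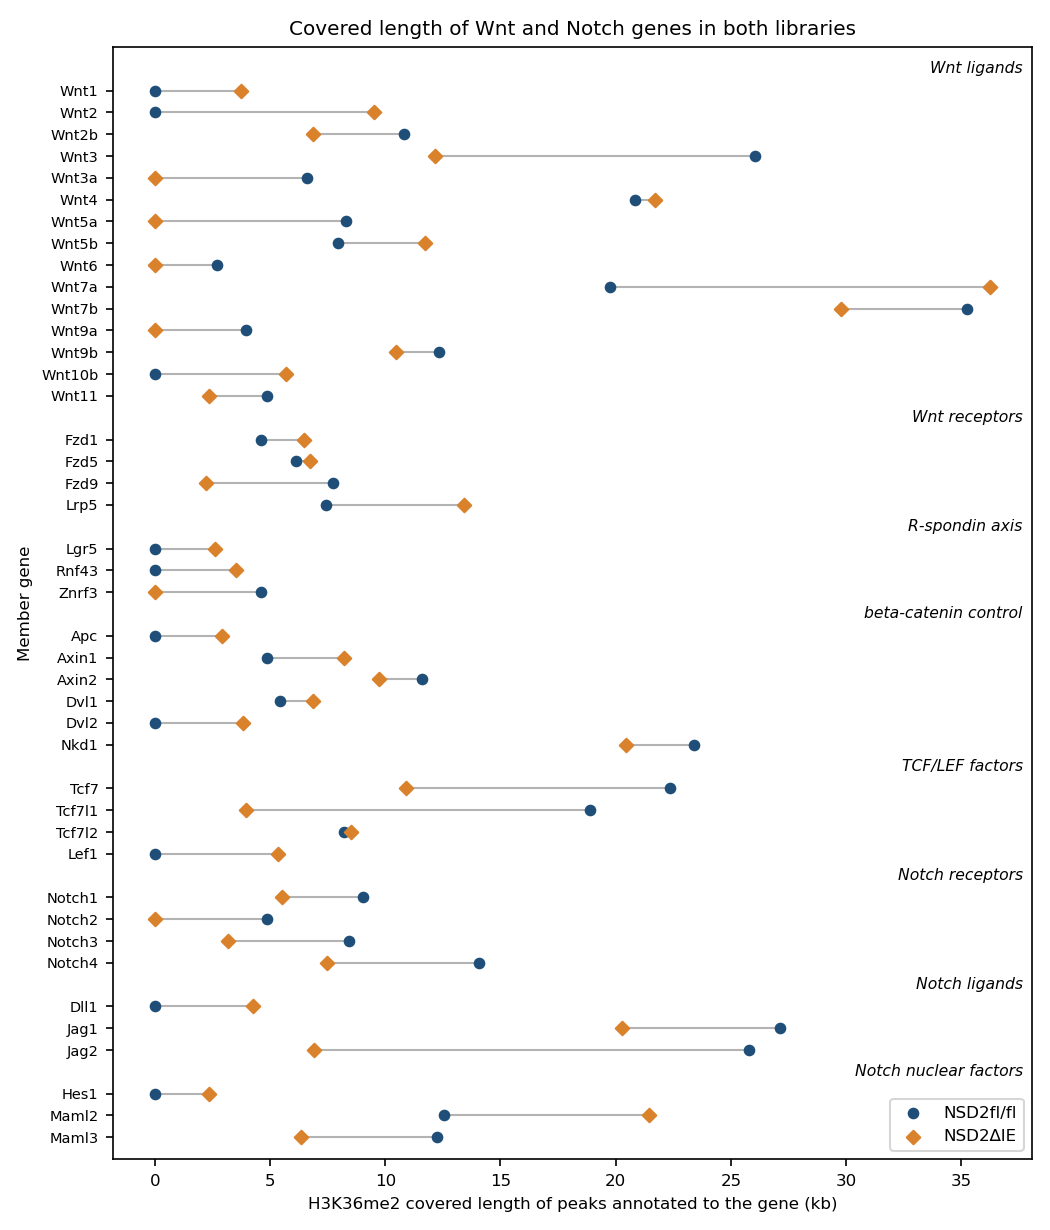
Covered length (kb) of the peaks annotated to each of the 42 members with a peak, in NSD2fl/fl (circles) and NSD2∆IE (diamonds), by role. A point at 0 means that the list has no peak annotated to the gene; the 4 Notch receptors all lie lower in NSD2∆IE, and the Wnt ligands lie on both sides.

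No peak was listed in either library at 18 members. Among the ligands this was Wnt10a, and among the receptors it was Fzd2, Fzd3, Fzd4, Fzd6, Fzd7, Fzd8 and Fzd10 with the co-receptor Lrp6. Of the R-spondin axis, which stabilises Frizzled receptors on stem cells, the receptor Lgr4 and the ligands Rspo1 and Rspo3 had none. Ctnnb1, which encodes beta-catenin itself, had no annotated peak, nor did the kinase gene Gsk3b or Dvl3, whose product passes the signal on from Frizzled. In the Notch pathway the ligand Dll4, the DNA-binding factor Rbpj and the coactivator Maml1 had none. The lists give no coordinates for these genes, so peaks over them that were annotated to a neighbour could not be searched for.

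Of the 16 Wnt ligands, 15 had a peak, 7 less, 5 more and 3 similar, with 159371 bp covered in NSD2fl/fl and 150193 bp in NSD2∆IE. Wnt7b, an epithelial ligand of developing organs, had the longest coverage of any member in NSD2fl/fl, 6 peaks over 35252 bp, and 6 peaks over 29782 bp in NSD2∆IE (log2 ratio -0.24). Its strongest peak ran on chromosome 15 from 85447836 to 85464275 in NSD2fl/fl, 16440 bp with 5.40 times the lowest signal. In NSD2∆IE it ran from 85447840 to 85460167, 12328 bp with 5.39 times the lowest signal. The ends facing the 3' side of the gene lay 4 bp apart, and the NSD2∆IE domain stopped 2104 bp short of an inner start site that the NSD2fl/fl domain covers. The outer start site of the lists, at 85466022, lay in no NSD2fl/fl peak. A 2679-bp NSD2∆IE peak covered it, at 1.09 times the lowest signal and annotated to AU022754. The strongest Wnt7b peak was the only member domain of 10 kb or more in both libraries.

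Wnt7a, whose protein is a close relative of that of Wnt7b, had the longest coverage in NSD2∆IE. It had 4 peaks over 19766 bp in NSD2fl/fl and 8 peaks over 36256 bp in NSD2∆IE (log2 ratio 0.88). An NSD2∆IE peak overlapped each of the 4 NSD2fl/fl peaks, and of the other 4 NSD2∆IE peaks only the one over the start site overlapped an NSD2fl/fl peak. That peak, 9315 bp on chromosome 6 from 91382612 to 91391926, was annotated to Gm30437 and so was not counted for Wnt7a. When every peak over the gene was counted whatever its annotation, 41.9% of the span of Wnt7a lay in NSD2fl/fl peaks and 46.9% in NSD2∆IE peaks.

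Wnt3, a ligand that Paneth cells supply to the stem cells of the small intestine, was covered less in NSD2∆IE. It had 3 peaks over 26049 bp in NSD2fl/fl and 2 over 12179 bp in NSD2∆IE (log2 ratio -1.10). The domain over its start site in NSD2fl/fl, 11175 bp with 2.46 times the lowest signal on chromosome 11 from 103664676 to 103675850, met only a 2393-bp peak in NSD2∆IE, at its far end. The gene's 3' part was the exception, with an 8492-bp NSD2∆IE peak of 4.35 times the lowest signal that held the whole 4594-bp NSD2fl/fl peak there. Peaks of either annotation covered 65.7% of the span in NSD2fl/fl and 24.8% in NSD2∆IE. The neighbouring ligand gene Wnt9b was similar, with 12330 bp and 10451 bp (log2 ratio -0.24), and 1 of its peaks in each library lay in intron 1 of Wnt3.

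Wnt4, a ligand also made in the connective tissue around crypts, had 4 peaks in each library, over 20836 bp and 21724 bp (log2 ratio 0.06). Its NSD2∆IE peaks lay differently, with a 10534-bp domain of 4.61 times the lowest signal at the 3' end, and 2 promoter peaks of 3645 and 3516 bp where NSD2fl/fl had none annotated as promoter. Wnt2b, a stromal ligand, had 10803 bp and 6842 bp (log2 ratio -0.66), and its promoter peak of 5089 bp was listed in NSD2fl/fl alone. By span Wnt2b was similar, with 33.8% covered in NSD2fl/fl and 36.2% in NSD2∆IE. Wnt11, which acts mainly without beta-catenin, had 1 peak in each library, of 4862 bp and 2330 bp (log2 ratio -1.06). They lay apart, the NSD2fl/fl peak inside the gene and the NSD2∆IE peak 5740 bp upstream in an exon of Gm39054. A 10199-bp NSD2fl/fl peak over the 5' end was annotated to Gm33770. Of the Wnt11 span 41.7% was covered in NSD2fl/fl and 0% in NSD2∆IE. Wnt5b, another ligand that acts mainly without beta-catenin, had 7952 bp and 11725 bp (log2 ratio 0.56). None of its 2 NSD2fl/fl peaks overlapped any of its 4 NSD2∆IE peaks, and several lay in introns of the neighbour Erc1.

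The other ligands had peaks in 1 library. Wnt5a, the main ligand without beta-catenin signalling in the gut mesenchyme, had a 3664-bp promoter peak and a 4622-bp intergenic peak in NSD2fl/fl, at 1.23 and 1.02 times the lowest signal. Wnt3a (6621 bp), Wnt6 (2678 bp) and Wnt9a (3936 bp, at the promoter) were also listed in NSD2fl/fl alone. Wnt2, a stromal ligand, had 9501 bp in NSD2∆IE, with a 3981-bp peak over the start site, and Wnt10b a 5677-bp peak over its own. The other Wnt2 peak, of 5520 bp, lay outside the gene, 87.7 kb from the start site in an exon of St7. Peaks covered 2.57% of the Wnt2 span in NSD2∆IE. Wnt1 had a 3726-bp intergenic peak in NSD2∆IE. These single-library peaks stood between 1.02 and 2.03 times the lowest signal of their list.

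Of the 12 Wnt receptor genes, 4 had a peak, 1 less, 1 more and 2 similar, and all 4 had it in both libraries. This was 33.3% in each library, near the 30.9% and 32.9% of protein-coding genes. Lrp5, the co-receptor, had the strongest: 7443 bp in NSD2fl/fl and 8065 bp in NSD2∆IE in intron 5 of 22, at 2.23 and 3.26 times the lowest signal, with 6302 bp shared. Another 2 short peaks in NSD2∆IE, the stronger at 1.08 times the lowest signal, brought its covered length to 13404 bp and its log2 ratio to 0.85. A 10908-bp NSD2fl/fl peak over the Lrp5 start site was annotated to Gm36672. No NSD2∆IE peak lay over that start site, and the span was covered to 18.6% and 23.8%. Fzd9 had 7749 bp in NSD2fl/fl and 2235 bp in NSD2∆IE (log2 ratio -1.79), and its 4203-bp peak over the start site was listed in NSD2fl/fl alone.

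The peaks of Fzd1 and Fzd5 lay outside these genes. At Fzd1 they were between 104 and 131 kb from the start site, within Cdk14 (4585 bp and 6478 bp, log2 ratio 0.50, just below the limit for more), and at Fzd5 between 36.8 and 55.4 kb away (6140 bp and 6723 bp, log2 ratio 0.13). No peak in either library overlapped the span of Fzd1 or Fzd5. Their coverage therefore describes the neighbourhood and not the receptor genes.

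In the R-spondin axis, Lgr5, the receptor that marks crypt stem cells, had 1 annotated peak in all. It was 2621 bp in NSD2∆IE, 4477 bp upstream on chromosome 10 from 115428162 to 115430782, with a signal of 16676 against the list's lowest of 16571. A further NSD2∆IE peak of 3127 bp inside the gene was annotated to A930009A15Rik. That peak alone made up the 2.27% of the Lgr5 span covered in NSD2∆IE, and none was covered in NSD2fl/fl. Rnf43 and Znrf3 encode ubiquitin ligases that remove Frizzled from the cell surface. Rnf43 had a 3529-bp peak 1498 bp upstream in NSD2∆IE at 1.13 times the lowest signal, and Znrf3 a 4587-bp intronic peak in NSD2fl/fl at 1.23 times. Their genes were not empty in the other library, since peaks annotated elsewhere covered 10.3% of the Rnf43 span in NSD2fl/fl and 8.06% of the Znrf3 span in NSD2∆IE.

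Of the 9 genes of beta-catenin control, 6 had a peak, none less, 3 more and 3 similar. Axin1, the scaffold of the complex that degrades beta-catenin, had 1 promoter peak in each library, on chromosome 17 from 26347366 to 26352242 in NSD2fl/fl (4877 bp) and from 26344121 to 26352330 in NSD2∆IE (8210 bp). The first lay wholly inside the second, the right ends were 88 bp apart, and the signals were 1.62 and 3.55 times the lowest (log2 ratio of covered length 0.75). Most of the added length lay upstream of the Axin1 span, of which 8.35% and 5.26% were covered.

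Axin2, a feedback inhibitor and a standard readout of Wnt activity, was similar, with 2 peaks over 11607 bp in NSD2fl/fl and 4 over 9717 bp in NSD2∆IE (log2 ratio -0.26). The 4743-bp and 6864-bp NSD2fl/fl peaks at exons 3 and 4 were each met by shorter NSD2∆IE peaks. Of the Axin2 span 46.4% and 33.1% were covered. Nkd1, another feedback inhibitor, had 5 peaks in each library over 23405 bp and 20439 bp (log2 ratio -0.20), most of them along intron 3 of 8. Its strongest NSD2∆IE peak, 7322 bp at 3.01 times the lowest signal, overlapped a 4444-bp NSD2fl/fl peak, and a 2893-bp peak over the start site was listed in NSD2∆IE alone.

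Dvl1, which carries the signal from Frizzled, had 5433 bp at its promoter in NSD2fl/fl and 6860 bp in its 3' part in NSD2∆IE (log2 ratio 0.34). The NSD2fl/fl list had an 11329-bp peak over that 3' part too, annotated to Tas1r3, and the span of Dvl1 was covered to 93.1% and 57.5%. Dvl2 had a 3817-bp promoter peak in NSD2∆IE alone, at 1.43 times the lowest signal. Apc, the tumour suppressor lost in most colorectal cancers, had a 2920-bp peak 2701 bp into the gene in NSD2∆IE alone, at 1.04 times the lowest signal. Like the Lgr5 peak it stood close to the limit of its list.

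All 4 TCF/LEF factors had peaks, 2 less, 1 more and 1 similar, and their covered length was 49479 bp in NSD2fl/fl and 28711 bp in NSD2∆IE. Tcf7, which encodes TCF1, had 3 peaks in each library, over 22368 bp and 10880 bp (log2 ratio -1.04). Its NSD2fl/fl domain of 12686 bp, on chromosome 11 from 52157733 to 52170418 at 4.13 times the lowest signal, overlapped 3 NSD2∆IE peaks, the largest of 5815 bp lying wholly inside it. One wide domain in NSD2fl/fl thus corresponded to several short peaks with gaps between them. Tcf7l1, a repressor of Wnt targets, had the lowest log2 ratio of the members with peaks in both libraries, -2.25. It had 2 peaks of 11304 bp (intron 3) and 7578 bp (promoter) in NSD2fl/fl and 1 of 3969 bp in NSD2∆IE, with no overlap.

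Over the whole span of Tcf7l1, 5 NSD2fl/fl peaks and 4 NSD2∆IE peaks covered 25.3% and 9.92%, the remainder of them annotated to predicted genes inside it. Tcf7l2, the main factor of the colon epithelium, was similar in length, 8229 bp and 8502 bp (log2 ratio 0.05), but its single NSD2fl/fl peak and its 2 NSD2∆IE peaks lay at different places in intron 4 of 14. Lef1 had 2 peaks in introns 7 and 8 in NSD2∆IE alone, 5360 bp at no more than 1.14 times the lowest signal. A further peak over Lef1 in both libraries was annotated to Hadh.

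**Figure D2:**
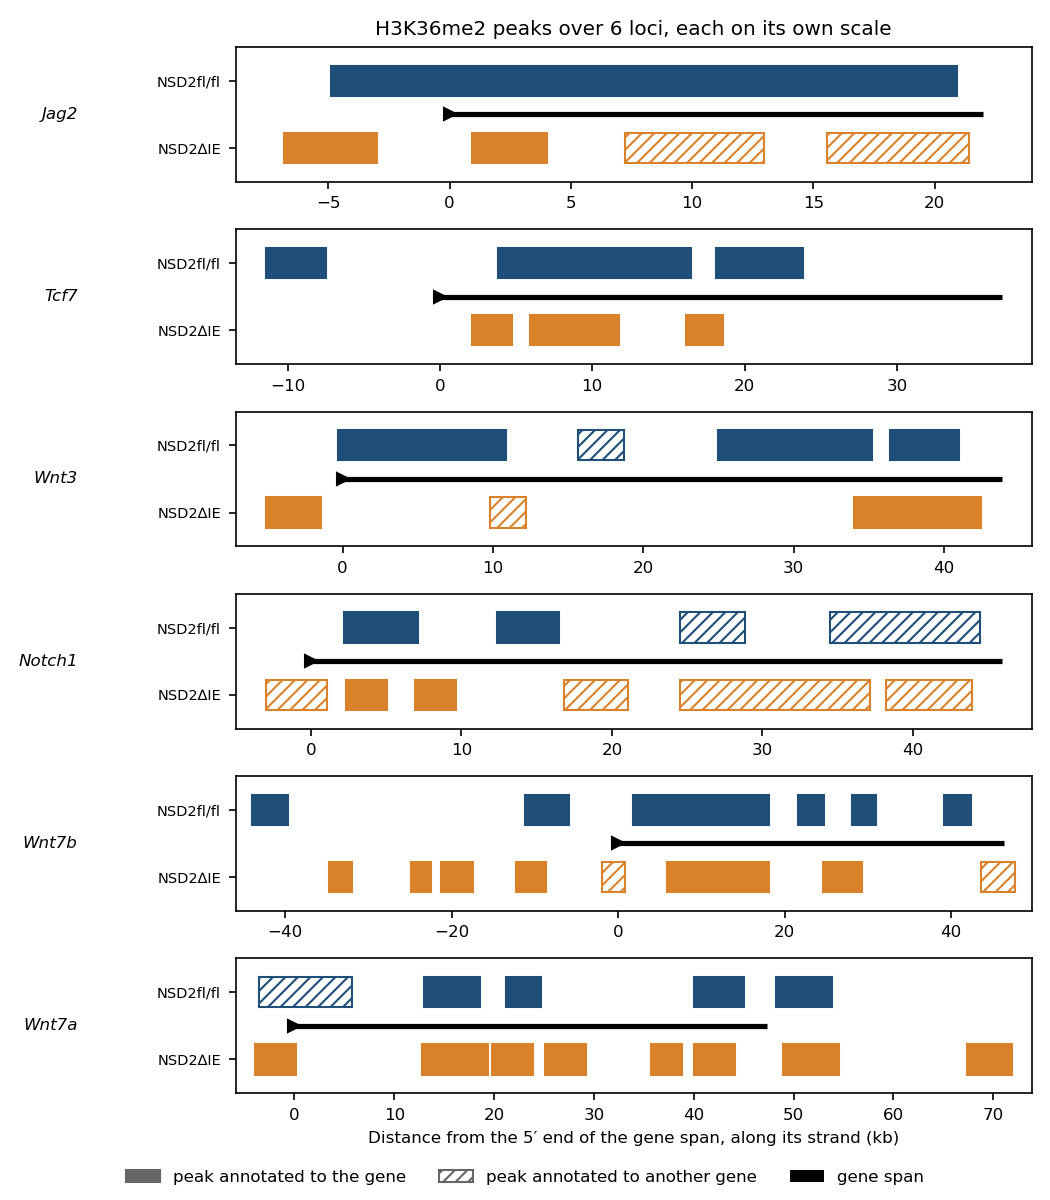
Peaks over 6 loci, drawn by distance (kb) from the 5′ end of the gene span (black line, arrowhead at the 5′ end), in NSD2fl/fl (blue, above) and NSD2∆IE (orange, below). Filled bars are peaks annotated to the gene, hatched bars peaks annotated to another gene; at Jag2 1 bar of 25802 bp stands above 4 short ones, and at Notch1 most of the covered length is hatched.

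All 4 Notch receptors were less, with 36359 bp covered in NSD2fl/fl and 16156 bp in NSD2∆IE, 0.444 times the length. Notch4, the receptor of endothelium, had 3 peaks over 14047 bp and 2 over 7453 bp (log2 ratio -0.91). Its promoter peak was listed in both, 3800 bp and 3608 bp on chromosome 17 with starts at 34782781 and 34783153, and the 4983-bp peak over exon 5 was listed in NSD2fl/fl alone. Notch3, the receptor of vascular smooth muscle, had 2 promoter peaks over 8405 bp in NSD2fl/fl and 1 peak of 3178 bp at exon 7 in NSD2∆IE (log2 ratio -1.40). The Notch4 span was covered to 56.3% and 31.2%, and that of Notch3 to 9.53% and 6.90%.

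Notch1, the main Notch receptor of crypt stem cells together with Notch2, had 2 annotated peaks in each library, over 9019 bp and 5525 bp (log2 ratio -0.71). A promoter-flank peak was shared, from 26386729 to 26391670 in NSD2fl/fl and from 26388770 to 26391533 in NSD2∆IE on chromosome 2. The widest peaks over Notch1 were annotated to Mir6996, which lies within its span, among them an NSD2∆IE domain of 12625 bp at 4.74 times the lowest signal. When these were included, 50.9% of the Notch1 span was covered in NSD2fl/fl and 63.5% in NSD2∆IE, so the order of the libraries turned. Notch2 had a single annotated peak, of 4888 bp in NSD2fl/fl, 4202 bp upstream, yet 6 NSD2fl/fl and 5 NSD2∆IE peaks lay over its span and covered 22.0% and 13.0% of it. The shared direction of the 4 receptors thus rests on the assignment of peaks to the nearest gene, and by span Notch2 and Notch4 were less and Notch1 and Notch3 similar.

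Jag2, a Jagged ligand, had the widest and strongest peak of all members. It was an NSD2fl/fl domain of 25802 bp on chromosome 12 from 112872522 to 112898323, which covers the start site and reaches nearly to the 3' end, with a signal of 192020 or 8.82 times the lowest. In NSD2∆IE, peaks of 3072 and 3843 bp were annotated to Jag2 (log2 ratio -1.90). A pair of further NSD2∆IE peaks of 5875 and 5712 bp that overlapped the same domain, by 5362 and 5712 bp, were annotated to Mir6941, and the 4 together shared 16057 bp with it. By span the difference was smaller, 95.0% covered in NSD2fl/fl and 66.6% in NSD2∆IE, and the start site itself fell in a gap of the NSD2∆IE peaks.

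Jag1, the other Jagged ligand, had 6 peaks over 27118 bp in NSD2fl/fl and 5 over 20274 bp in NSD2∆IE (log2 ratio -0.42). Of these lengths 14886 bp and 11571 bp lay within its span, 42.4% and 33.0% of it. The NSD2fl/fl peaks outside the span lay in introns of the neighbour Slx4ip, as did 1 NSD2∆IE peak. The strongest Jag1 peaks were matched, 6814 bp at exon 8 and 7114 bp at exon 6 with 2665 bp shared, whereas a 4463-bp promoter peak was listed in NSD2fl/fl alone. Dll1, the Delta ligand of secretory precursors, had a 4259-bp promoter peak in NSD2∆IE alone at 1.74 times the lowest signal, covering 50.3% of the gene. Hes1, the classical Notch target in the crypt, had 1 peak, 2353 bp in NSD2∆IE, 6162 bp upstream and at 1.03 times the lowest signal. No peak overlapped Hes1 itself in either library.

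The coactivators Maml2 and Maml3, both very long genes, went in opposite directions. Maml2 had 3 peaks over 12561 bp in NSD2fl/fl and 5 over 21447 bp in NSD2∆IE (log2 ratio 0.77), and 5.30% and 7.66% of its span were covered. Maml3 had 3 peaks over 12232 bp and 2 over 6328 bp (log2 ratio -0.95), but by span it was covered to 3.33% and 5.61%. None of the annotated peaks of either gene overlapped a peak of the other library.

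The position of a peak in relation to other genes thus bore on the class of many members. Of the peaks that lay over the span of a member, 29 of 79 in NSD2fl/fl and 37 of 96 in NSD2∆IE were annotated to a gene that is not a member. By the length of the span in any peak, 13 members were less, 11 more and 13 similar, and 5 had no peak over their span. Over the 11835 genes with a peak over their span, 44.3% were less, 37.2% more and 18.5% similar. The measures gave the same class at 24 members. Those less by both were Wnt3, Wnt3a, Wnt6, Wnt11, Fzd9, Tcf7, Tcf7l1, Notch2, Notch4 and Jag2, and those more by both were Wnt2, Wnt5b, Wnt10b, Lgr5, Apc, Dvl2, Dll1 and Maml2. Wnt9a and Maml3 turned from less to more, and Rnf43 and Axin1 from more to less. Any peak lay over 30 of the 42 spans in NSD2fl/fl and 33 in NSD2∆IE, and the median share covered was 15.6% and 11.0%. Over all 18187 genes of the lists, 47.4% and 48.5% had a peak over the span, and the median share covered was 0% in both.

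**Figure D3:**
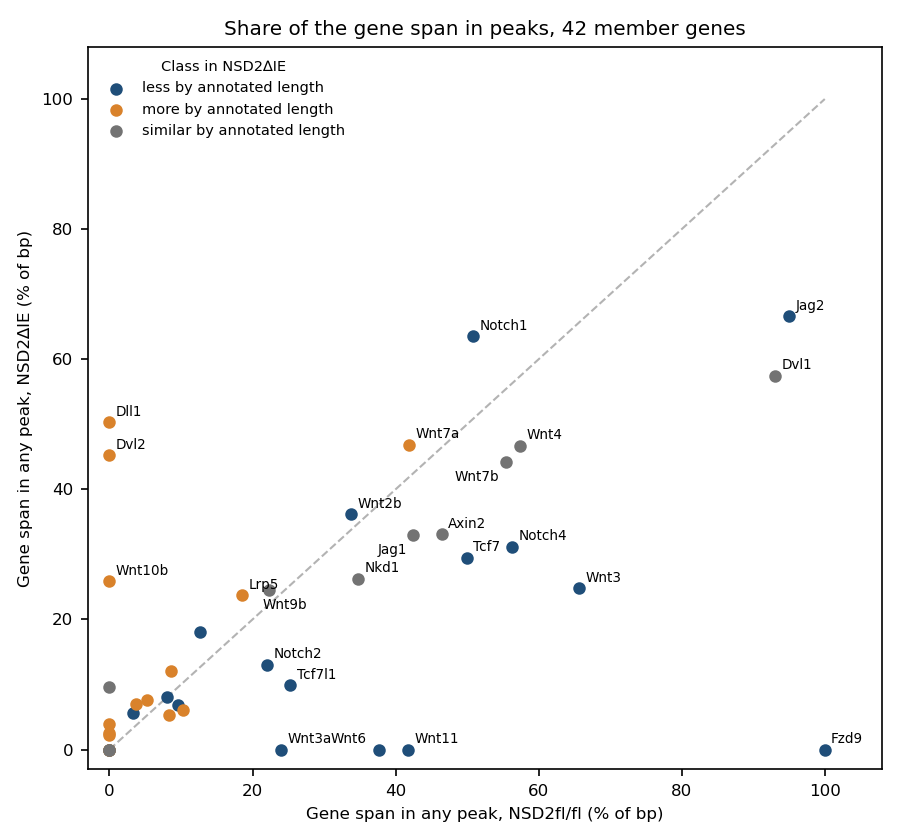
Share of each member's span (% of bp) in any peak in NSD2fl/fl (x) and NSD2∆IE (y), with colours for the class by annotated length and a dashed line where both are equal. Wnt3, Tcf7, Notch4, Dvl1 and Jag2 lie below the line; Notch1, less by annotated length, lies above it.

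Peaks shared between the libraries made up a larger part of the member peaks than of all peaks by an overlap of 1 bp, and a more similar part by a stricter one. In NSD2fl/fl, 33 of 71 overlapped an NSD2∆IE peak by at least 1 bp (46.5%, 95% Wilson interval 35.4% to 58.0%, counting error only), beside 34.1% of all peaks. In NSD2∆IE it was 39 of 86 (45.3%, 35.3% to 55.8%), beside 30.7%. Peaks of 1 gene are not independent, and no test was made. A reciprocal overlap of at least 50% left 13 and 14 of them, 18.3% and 16.3%, beside 15.8% and 13.4% of all peaks. Of 45 overlapping pairs, the NSD2∆IE peak was the narrower in 33 (73.3%), as in 74.9% of all 7465 pairs. The blocks of highest signal lay within 1 kb of each other in 9 of the 45 pairs (20%), beside 29.3% of all pairs, with a median distance of 2578 bp.

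The widest domains of the members were mostly in NSD2fl/fl. Peaks of 10 kb or more made up 6 of 71 in NSD2fl/fl (8.45%; 3.38% of all peaks) and 2 of 86 in NSD2∆IE (2.33%; 0.693% of all peaks). The 6 were at Jag2, Wnt7b, Tcf7, Tcf7l1 and, in a pair, Wnt3, and the 2 at Wnt7b and Wnt4. The share of NSD2fl/fl peaks that overlapped at least 2 NSD2∆IE peaks, as at Jag2 and Tcf7, was 7.04% of member peaks and 3.09% of all. In the other direction, 4.65% of NSD2∆IE member peaks overlapped at least 2 NSD2fl/fl peaks, as at Wnt3 and Wnt4, beside 1.02% of all. At the other end, 25.4% and 26.7% of member peaks stood within 10% of the lowest signal of their list, against 25.4% and 26.0% of all peaks. Shared member peaks were the stronger, with a median of 1.62 times the lowest signal in NSD2fl/fl against 1.17 for the unshared, and 1.49 against 1.20 in NSD2∆IE. Over all peaks the order was the same, 1.41 against 1.20 in NSD2fl/fl and 1.38 against 1.20 in NSD2∆IE.

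**Figure D4:**
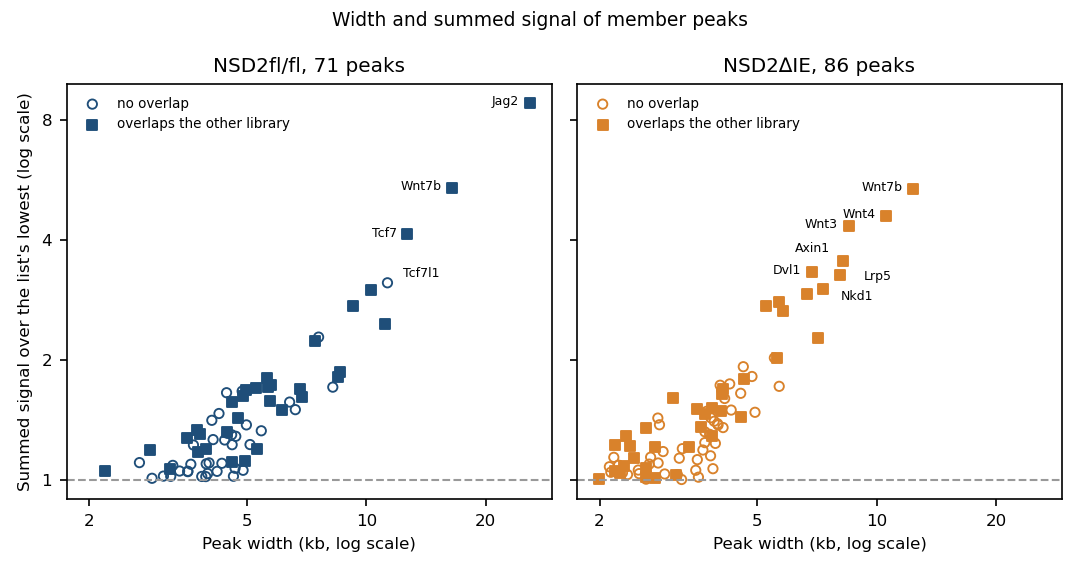
Width (kb) and summed signal over the lowest of the list (dashed line at 1), both on log scales, for the 71 NSD2fl/fl and 86 NSD2∆IE member peaks. Filled squares overlap a peak of the other library and open circles do not; the widest and strongest peaks are mostly filled, and the Jag2 domain stands alone at 25802 bp and 8.82 times the lowest signal.

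By genomic feature, members had many peaks in introns after the first: 21 of 71 in NSD2fl/fl (29.6%, 95% Wilson interval 20.2% to 41.0%) and 28 of 86 in NSD2∆IE (32.6%, 23.6% to 43.0%), beside 13.6% and 15.6% of all peaks. Many of these were the runs of peaks along Nkd1, Wnt7a and Maml2. The feature is that of the transcript in which a peak lies, which can belong to a neighbour. Some of these peaks, annotated to Jag1, Wnt5b, Fzd1 and Fzd9, lay in introns of Slx4ip, Erc1, Cdk14 and Fkbp6. Promoter peaks made up 26.8% (17.9% to 38.1%) and 25.6% (17.5% to 35.7%), beside 32.1% and 27.9% of all peaks. Distal intergenic peaks made up 8.45% and 11.6%, beside 18% and 20.1%. Of the 26 members with a promoter peak in either library, 7 had one in both, namely Wnt3, Wnt7b, Axin1, Tcf7, Notch1, Notch4 and Jag2.

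**Figure D5:**
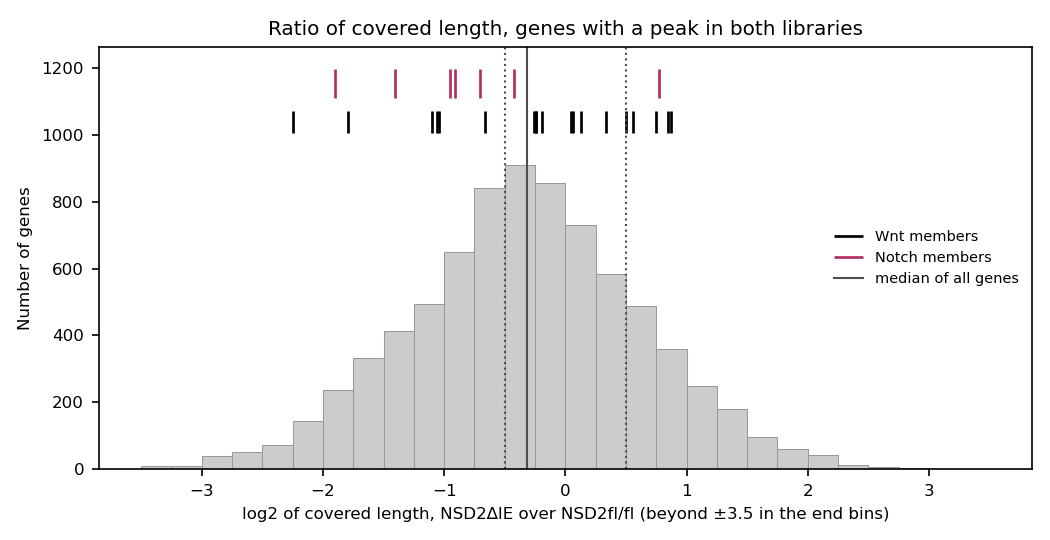
Log2 ratio of covered length, NSD2∆IE over NSD2fl/fl, for all 7870 genes with a peak in both libraries (grey bars, number of genes) and for the 26 members among them (ticks above: Wnt black, Notch red). The solid line is the median of all genes, -0.32, and dotted lines mark -0.5 and 0.5; the member ticks lie between -2.25 at Tcf7l1 and 0.88 at Wnt7a, and the bars reach beyond both.

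The lists' lower limits bore on the members that had a peak in NSD2∆IE alone. Of the 86 NSD2∆IE member peaks, 42 had a signal below 21783, the lowest of the NSD2fl/fl list, taking both signals as deposited with their scaling unknown (48.8%; 59.1% of all NSD2∆IE peaks). These included every NSD2∆IE peak of Lgr5, Rnf43, Apc, Lef1 and Hes1, 5 of the 10 members listed in NSD2∆IE alone. With 21783 as the limit of both lists, 24 members were less, 8 more and 5 similar, and over all genes 68.5% were less and 19.5% more. How far the limits differ in depth was not tested.

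Among 105 further genes of the pathways, secreted inhibitors, modifiers, cofactors and targets, 72 had a peak, 35 less, 16 more and 21 similar. These were 48.6%, 22.2% and 29.2% of those with a peak, beside 43.3%, 39.7% and 16.9% of all genes. The median log2 ratio of the 48 with peaks in both libraries was -0.35, beside -0.32 over all such genes. Among those with long coverage in NSD2fl/fl were the cell cycle gene Ccnd1, a Wnt target, with 24948 bp against 6313 bp in NSD2∆IE, and the ubiquitin ligase gene Neurl1b with 21734 bp against 15189 bp. Among those with long coverage in NSD2∆IE were the R-spondin gene Rspo4, 21898 bp against 16064 bp in NSD2fl/fl, and Ctnnbip1, an inhibitor of beta-catenin, 16576 bp against 18692 bp. At Rspo4 the order turned by span, with 50.2% covered in NSD2fl/fl and 31.9% in NSD2∆IE. The span of Ccnd1 was covered to 46.5% and 0%, that of Neurl1b to 43.6% and 7.77%, and that of Ctnnbip1 to 38.8% and 34.4%. In NSD2∆IE, 4 of the 5 peaks of Neurl1b and both of Ccnd1 were distal intergenic.

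Markers of the cell types of the colon wall were checked as loci, since whole tissue was used. Of 8 epithelial markers 6 had a peak, 1 less, 4 more and 1 similar, with 38038 bp covered in NSD2fl/fl and 57285 bp in NSD2∆IE. The longest was at Vil1, whose promoter drives the Cre, with 13184 bp and 23472 bp, and without it the sums were 24854 bp and 33813 bp. Cdx1, a homeobox factor of the intestine, was less by annotated length, with 10071 bp and 3542 bp (log2 ratio -1.51), but by span the order turned, with 19.4% covered in NSD2fl/fl and 64.4% in NSD2∆IE. The epithelial markers Cdx2 and Krt8 had no peak, and Epcam had 3063 bp in NSD2∆IE alone. Of 4 smooth muscle markers 3 had a peak, 2 less and 1 more, with 39918 bp and 13916 bp in all. Myh11 had 30046 bp and 7771 bp, Cnn1 had 9872 bp and 3315 bp, Des had 2830 bp in NSD2∆IE alone, and Acta2 had no peak. Of the 4 fibroblast markers (Col1a1, Col1a2, Pdgfra and Dcn) none had a peak. Of 3 endothelial markers 2 had one (10275 bp and 13207 bp in all), Pecam1 with 4483 bp and 10487 bp and Cdh5 with 5792 bp and 2720 bp, and Kdr had none. The order at Cdh5 turned by span, with 10.9% and 27.9% covered. Of the immune markers, Csf1r had 3011 bp in NSD2fl/fl and 12338 bp in NSD2∆IE, Ptprc had 5871 bp in NSD2∆IE alone, and Cd3e and Itgam had no peak. Of the nerve and glia markers, Ret had 10821 bp and 17759 bp, Sox10 had 3643 bp in NSD2fl/fl alone and Elavl4 had 2218 bp in NSD2∆IE alone, although 4457 bp of its span were covered in NSD2fl/fl and 2218 bp in NSD2∆IE. The part of cell composition in the differences at the Wnt and Notch genes was not tested.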

How the data were processed

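H3K36me2 CUT&Tag was done on colon tissue, with 1 library of NSD2fl/fl and 1 of NSD2∆IE mice. The authors deposited a list of peaks per library, and the submitters' processing notes name Bowtie2, deepTools, SEACR and ChIPseeker, without versions, and the build hg38, which is a human build, although the lists hold mouse genes. The signal deposited for each peak is a whole number summed over its bases, with no stated scaling to depth, control or threshold. The authors also deposited the positions, widths and distances in bp, and the nearest gene and feature of each peak. Positions are printed as the lists give them, since their build is not the GRCm38.p6 of the gene table used for names, which held 17571 of the 18187 gene names. Pathway terms and gene descriptions in the lists were not used.

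The members, groups, gene lists and tests were chosen with earlier results of these data known. Python 3.11.15 (pandas 2.3.3, numpy 2.4.6) gave the covered length per gene, overlaps of at least 1 bp, feature shares and spans, and statsmodels 0.14.6 the Wilson intervals, which cover counting error only. A span runs from the first to the last position of the transcripts that the lists give for a gene, so it can miss exons of other transcripts. The functions were tested on simulated lists. Samples were grouped by their genotype label. Values were given for members with peaks in both libraries or at a promoter and for Lgr5, Axin2, Notch1, Hes1, Ctnnb1 and Apc, and for the 3 genes of the wider list with the longest coverage in each library, of which some are not reported here, like some cell type markers. Promoter sequence was shown by rule for up to 4 members with the start site in a peak of both libraries. Alternatives were another limit, centring, numbers of peaks, promoter peaks, stronger peaks, equal numbers of peaks, joined peaks, no intergenic peaks and a reciprocal overlap. Spans as the unit of class and 1 lower limit for both lists were added after seeing the data.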

Additional observations from a re-analysis of the deposited data

How the results depend on the processing

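Of 53 alternative values for the counts and shares of the members, 40 stayed within 1.5 times the count or within the Wilson interval of the share. With promoter peaks only, 16 members had a peak in NSD2fl/fl and 17 in NSD2∆IE, and 2 of 26 were similar (10.1% of all genes). Counting members listed in both libraries alone, 11 of 26 were less and 5 more (41.8% and 19.0% of all genes). Among the strongest 50% of each list 8 of 30 were more (42.7% of all genes). A log2 limit of 1 made 19 of 42 similar (29.8%). With 1 lower limit for both lists, which removes NSD2∆IE peaks only, 23 members had a peak in NSD2∆IE, and of 37 with any peak 8 were more and 5 similar (19.5% and 12.0% of all genes). A reciprocal overlap of 50% left 18.3% of the NSD2fl/fl and 16.3% of the NSD2∆IE member peaks as shared, beside 15.8% and 13.4% of all peaks. Members thus stood closer to all peaks than with 1 bp. With a promoter of 1 kb, 11 of the 86 NSD2∆IE member peaks (12.8%) were at promoters, beside 4357 of all 23518 NSD2∆IE peaks. Less outnumbered more among all genes under each setting but centred ratios and numbers of peaks, where 44.0% of genes were more in both cases, with 17 and 20 members. Beyond the smaller numbers of peaks or genes that a setting leaves, the cause was not tested. No paired analysis was possible because there was a single library of either genotype. No replicate could be left out for the same reason, and the unknown depth limits any statement on peaks near the lowest signal of a list.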
